A study of Homo sapiens with 14 samples.

Results

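The genes examined here were 32 enzymes and regulators of cholesterol and fatty acid synthesis, chosen by name from the 62703 genes of the count table. They fell into a sterol arm of 21 genes, a fatty acid arm of 7 genes and 4 regulators. The rule that picked them by name used no expression value, though they were chosen with earlier results of these data known. The level of each gene, and its response to CDK8/19 inhibition, was followed in 3 established lines of prostate cancer cells, named LNCaP, 22Rv1 and PC3. Cells of each line were kept for 3 days in 1.5 µM SEL120-34A, which blocks CDK8 and CDK19, the kinases of the Mediator complex, or in its vehicle DMSO. LNCaP and 22Rv1 had 3 libraries with DMSO and 3 with SEL120-34A, and PC3 had 1 library of each. No genetic change was introduced, each line stands for the cancer of a single patient, and the labels do not say whether libraries of a group came from separate cultures, so p-values measure the spread between these libraries, which may be technical.

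Cells make cholesterol from acetyl-CoA through mevalonate, the isoprenoid farnesyl pyrophosphate and squalene, and they make fatty acids from the same acetyl-CoA. Both routes are switched on by the sterol regulatory element binding proteins, which are encoded by SREBF1 and SREBF2. These factors are held in the endoplasmic reticulum by INSIG proteins while sterols are plentiful, and SCAP escorts them to the Golgi apparatus for cleavage when sterols run low. SREBF2 is known mostly for driving the sterol enzymes and SREBF1 for driving the fatty acid enzymes. In the prostate, androgens are known to raise lipid synthesis, and FASN is a familiar marker of prostate cancer.

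Libraries held 246063 to 909176 counts each, and the 32 genes together took 0.338% to 0.532% of them. Levels are given as CPM, that is counts scaled to a common library size by TMM, a factor that evens out differences in composition. With 3 counts as the floor, a gene could be missed at up to 3.27 CPM in the deepest library and 12.9 CPM in the shallowest, and such floors cover counting error only. Of the 32 genes, 31 passed the filter on low counts and were tested among 7086 genes. The exception was CYP51A1, the sterol 14-demethylase, which had at most 1 count in any library. On GRCh38, 2 other protein-coding features of GENCODE release 44 end 6 and 23 bases from the end of CYP51A1 on the same strand and also had 0 counts in all libraries. Whether CYP51A1 is low in these lines, or its reads were not assigned to one gene, cannot be told apart. A further gene was annotated within 500 bases of the end of 13 of the 32 genes, 5 of them on the same strand and 10 on the opposite strand. Since the use of strand in counting was not stated, reads of such neighbours as FADS1 and FADS2 cannot be told apart with certainty.

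The labels of the lines were checked against markers. The epithelial keratins KRT8 and KRT18 were present in all lines. The leukocyte genes PTPRC and CD3E and the muscle gene DES were at 0 in all 14 libraries. The share of counts on mitochondrial genes was higher with SEL120-34A, at 16.5% to 23.3% against 13.9% to 17.3% in LNCaP and 9.52% to 13.1% against 7.60% to 9.82% in 22Rv1. All 3 treated 22Rv1 libraries were also shallower than their controls. The 8 marker genes of leukocytes, endothelium, fibroblasts and muscle summed to 27.3 to 46.1 CPM in treated LNCaP against 19.7 to 26.2 CPM in its controls, and to at most 11 CPM in any 22Rv1 library. In PC3 they summed to 100.2 CPM with DMSO and 94.7 CPM with SEL120-34A. The part of these shifts in the results was not tested. In addition, more of a transcript per cell and more cells that express it cannot be told apart in such bulk RNA.

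The promoters of 4 sterol enzymes that rose in at least 1 line, and of SREBF2, are shown because these are the sequences on which the sterol-sensing factors are known to act. Each runs 5′ to 3′ on the strand of its gene, is taken from the RefSeq promoter table on GRCh38.p14 and ends before the first annotated start of the gene in GENCODE release 44. Capitals mark a CCAAT box, the letters CCAAT or their reverse complement ATTGG, bound by the factor NF-Y, or the sterol regulatory element, searched as TCACNCCAC on both strands.
LSS (chr21:46228825-46229024, minus strand): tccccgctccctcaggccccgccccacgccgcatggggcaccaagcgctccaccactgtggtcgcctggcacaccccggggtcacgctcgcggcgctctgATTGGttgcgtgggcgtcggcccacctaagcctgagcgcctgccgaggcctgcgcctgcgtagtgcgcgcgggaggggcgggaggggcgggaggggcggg
IDI1 (chr10:1049120-1049369, minus strand): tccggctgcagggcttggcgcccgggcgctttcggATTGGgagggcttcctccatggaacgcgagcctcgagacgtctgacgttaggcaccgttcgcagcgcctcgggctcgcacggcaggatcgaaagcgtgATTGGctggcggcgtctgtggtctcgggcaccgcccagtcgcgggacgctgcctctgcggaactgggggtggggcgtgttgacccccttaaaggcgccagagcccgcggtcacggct
FDPS (chr1:155308616-155308747, plus strand): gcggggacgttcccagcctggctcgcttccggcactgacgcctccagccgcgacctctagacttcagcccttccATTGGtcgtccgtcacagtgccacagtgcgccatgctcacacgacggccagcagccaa
HMGCS1 (chr5:43313513-43313662, minus strand): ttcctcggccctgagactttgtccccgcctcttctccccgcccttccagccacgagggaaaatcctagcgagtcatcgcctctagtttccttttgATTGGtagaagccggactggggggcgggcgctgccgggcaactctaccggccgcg
SREBF2 (chr22:41832855-41833104, plus strand): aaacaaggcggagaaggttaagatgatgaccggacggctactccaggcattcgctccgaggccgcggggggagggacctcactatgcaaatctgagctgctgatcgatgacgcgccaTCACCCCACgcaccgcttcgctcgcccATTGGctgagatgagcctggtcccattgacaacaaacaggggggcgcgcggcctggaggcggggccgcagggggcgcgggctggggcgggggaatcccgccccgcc

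Of the 32 genes, 28 had promoters in that table, and ACAT2, FDFT1, SQLE and FASN had none. In the 250 bases before the start, a CCAAT box was found for 21 of the 28 genes (75%), against 37% of the 27305 genes of the table. Counted by promoter, it was found in 25 of 39 (64.1%), against 32% of 35116. The sterol regulatory element in this strict form was found for 1 of the 28 genes, SREBF2, against 1.09% of all genes. The E-box CACGTG was found for 3 of the 28 genes (10.7%), against 7.73% of all genes. These matches describe letters in a window and are not a measure of binding.

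To investigate the response to CDK8/19 inhibition, each line was first compared with its own DMSO libraries. In 22Rv1, 4 sterol enzymes rose, namely IDI1, LSS, FDPS and HMGCS1, by 1.41-fold to 1.78-fold. In LNCaP, LSS alone passed the test, at 1.67-fold. No gene of either arm passed the test in the downward direction in either line. Of all genes tested, 0.776% did so in LNCaP and 1.55% in 22Rv1. The 4 regulators passed it in neither direction, where 1.99% and 4.15% of all genes were called higher. The fold changes of single genes were small and most did not pass a test over all genes, so counts of genes are read against the share of all 7086 genes that met the same criterion.

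**Figure D1:**
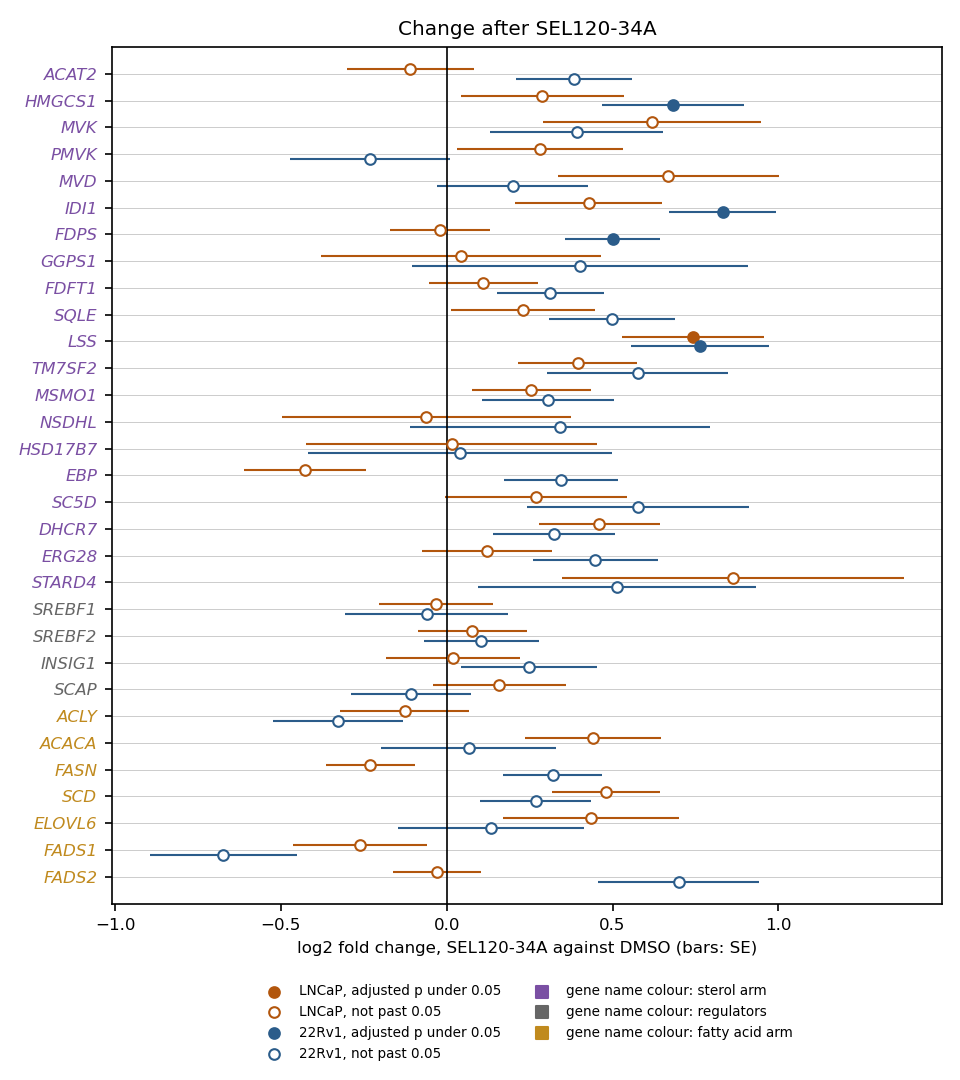
Log2 fold change of SEL120-34A against DMSO for the 31 tested genes in LNCaP and 22Rv1, with bars for the SE of edgeR's fit from 3 libraries per arm and filled points for an adjusted p under 0.05. Of the 20 sterol genes, 16 lie to the right of 0 in LNCaP and 19 in 22Rv1, and filled points are seen for LSS in LNCaP and for HMGCS1, IDI1, FDPS and LSS in 22Rv1.

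LSS (chr21:46188141-46228824 on GRCh38) encodes lanosterol synthase, which folds squalene epoxide into the first sterol. In LNCaP, the 3 DMSO libraries had LSS at 76.1, 60.2 and 67.1 CPM and the 3 treated libraries at 93.6, 119 and 120.4 CPM. In 22Rv1, LSS was at 82.5, 91.7 and 69.2 CPM with DMSO and at 135, 180.3 and 99.8 CPM with SEL120-34A. Every treated library lay above every control library of its line. The log2 fold change from edgeR's quasi-likelihood test was 0.74 ± 0.22 (SE), with an adjusted p = 0.0484, in LNCaP, and 0.76 ± 0.21 (SE), with an adjusted p = 0.0225, in 22Rv1. The mean of both effects was 0.75 ± 0.15 (SE), with an adjusted p = 0.000924. The difference between lines was -0.02 on the log2 scale, with a 95% interval of -0.63 to 0.59. Taken line by line the call was close to the threshold. In LNCaP it was lost when any of the 6 LNCaP libraries, or replicate 1 of either 22Rv1 group, was left out, with log2 fold changes of 0.68 to 0.84 and adjusted p = 0.0574 to 0.224. In 22Rv1 it was lost without DMSO replicate 1 or 3 or SEL120-34A replicate 1 or 2, with log2 fold changes of 0.58 to 0.77 and adjusted p = 0.0575 to 0.208. The mean over both lines passed the test under all 20 alternatives, with adjusted p at most 0.0305.

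IDI1 (chr10:1039152-1049119) encodes the isomerase that turns isopentenyl pyrophosphate into its allylic form, the starter unit of all isoprenoids. In 22Rv1, its level was 271, 221 and 249 CPM with DMSO and 369, 549 and 408 CPM with SEL120-34A. The groups did not overlap. The log2 fold change was 0.83 ± 0.16 (SE), with an adjusted p = 0.000731. None of the 12 libraries, when left out, ended this call, while limma on the deposited log2 values gave an adjusted p = 0.0842. In LNCaP, IDI1 was at 57.8, 110.0 and 88.1 CPM with DMSO and 101, 92.2 and 127 CPM with treatment, and these groups overlapped. There the log2 fold change was 0.43 ± 0.22 (SE), with an adjusted p = 0.398. The difference between the lines, -0.40 with a 95% interval of -0.96 to 0.15, did not pass the test. The mean of both effects was 0.63 ± 0.14 (SE), with an adjusted p = 0.00263.

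FDPS and HMGCS1 were the other sterol enzymes called in 22Rv1. FDPS (chr1:155308748-155320666) makes farnesyl pyrophosphate, the last intermediate shared by sterols and other isoprenoids, and HMGCS1 (chr5:43287470-43313512) makes the hydroxymethylglutaryl-CoA from which mevalonate is formed. FDPS was at 342, 283 and 363 CPM in the 22Rv1 controls and at 452, 528 and 419 CPM in the treated libraries. Its log2 fold change there was 0.50 ± 0.14 (SE), with an adjusted p = 0.0282. In LNCaP, FDPS was at 244, 309 and 296 CPM with DMSO and at 230.0, 290.0 and 285 CPM with SEL120-34A. These LNCaP groups overlapped, with a log2 fold change of -0.02 ± 0.15 (SE), with an adjusted p = 0.979. HMGCS1 was at 104, 97.3 and 83.5 CPM in the 22Rv1 controls and at 157, 137 and 151 CPM with treatment, again without overlap. Its log2 fold change was 0.68 ± 0.21 (SE), with an adjusted p = 0.049. The LNCaP controls ranged widely for HMGCS1, at 49.3, 110.0 and 60.1 CPM, against 62.4, 73.2 and 101 CPM with treatment, and the log2 fold change was 0.29 ± 0.24 (SE), with an adjusted p = 0.674. Both 22Rv1 calls lay near the threshold. FDPS lost its call without DMSO replicate 1 or 2 or SEL120-34A replicate 1 or 2 of 22Rv1, with log2 fold changes of 0.39 to 0.53 and adjusted p = 0.0678 to 0.173. HMGCS1 lost it without any of the 6 libraries of 22Rv1, or without DMSO replicate 3 or SEL120-34A replicate 1 or 2 of LNCaP, with log2 fold changes of 0.56 to 0.73 and adjusted p = 0.0592 to 0.207. The calls of LSS, FDPS and HMGCS1 in single lines were also lost with library totals in place of TMM, with no filter on low counts, after thinning and by limma, and DESeq2 did not give those of LSS in LNCaP and HMGCS1 in 22Rv1. The call of HMGCS1 was lost too where only genes with at least 10 counts in every library were tested.

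**Figure D2:**
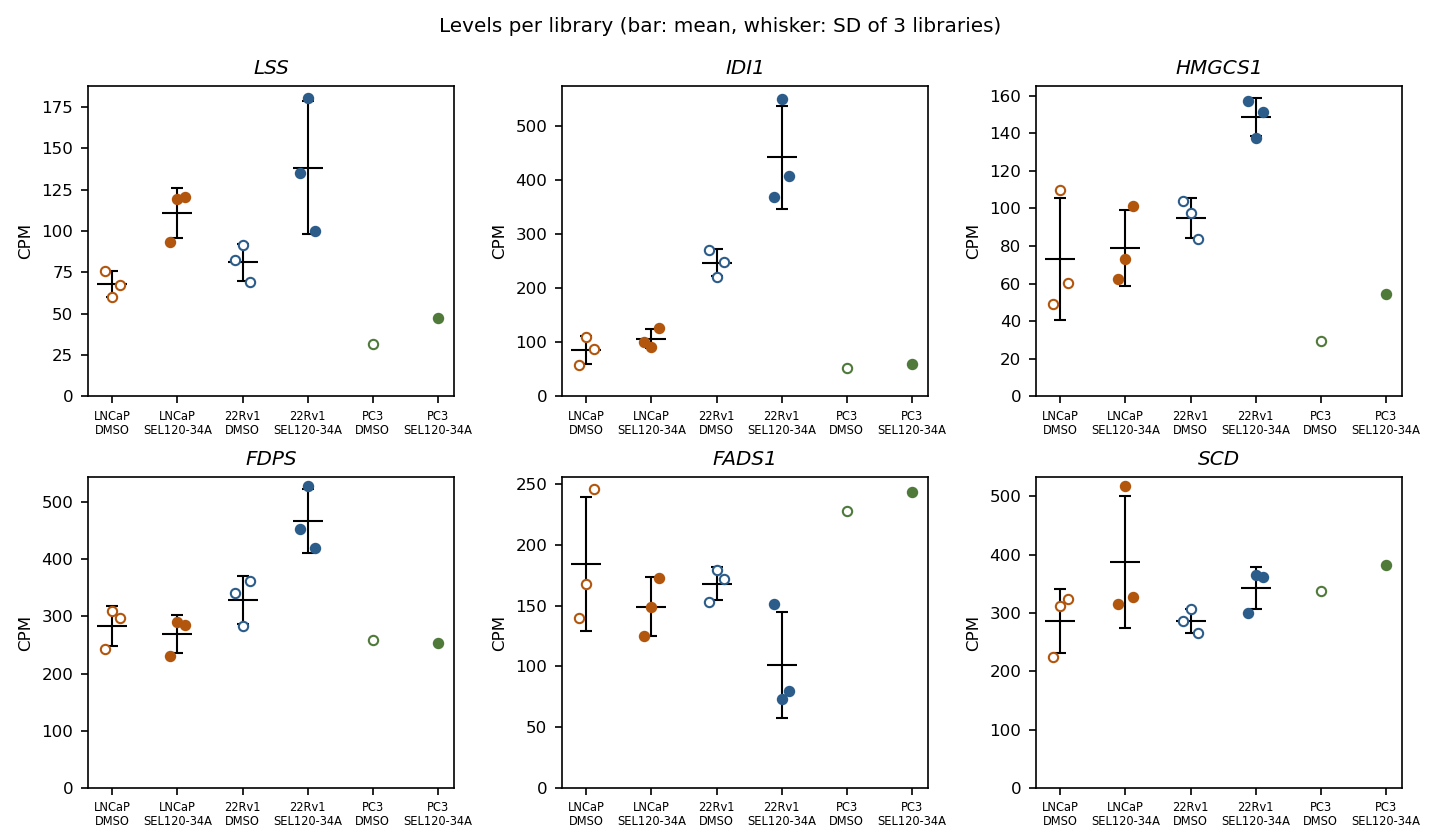
Level in CPM (vertical axes, from 0) of 6 genes in each of the 14 libraries, with open points for DMSO, filled points for SEL120-34A, bars for the mean and whiskers for the SD of 3 libraries. In 22Rv1 the treated libraries lie above all controls for LSS, IDI1, HMGCS1 and FDPS and below them for FADS1, and in LNCaP they lie above all controls only for LSS among these 6 genes.

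The remaining sterol genes did not pass the test in either line, and most of their estimates were above 0. Among all 31 tested genes, 1 was called higher in LNCaP, against 1.99% of all genes tested, and 0 were called lower, against 0.776%. In 22Rv1, 4 were called higher, against 4.15% of all genes, and 0 lower, against 1.55%. At an unadjusted p under 0.05, edgeR gave 5 genes higher in LNCaP (7.86% of all genes) and 1 lower (5.63%), and 10 higher in 22Rv1 (11.1%) and 1 lower (7.99%). DESeq2 and limma each called 0 genes lower in both lines. The log2 fold change was above 0 for 22 of the 31 genes in LNCaP, against 50.1% of all genes, and for 26 of 31 in 22Rv1, against 50.3%. Treated libraries all lay above the controls for 5 genes in LNCaP, against 8.76% of all genes, and for 9 in 22Rv1, against 12.4%. They all lay below the controls for 0 genes in LNCaP, against 10.7%, and for 2 in 22Rv1, against 10.5%.

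Most of the positive estimates fell in the sterol arm, which was also most of the set, with 20 of the 31 tested genes. It held 16 of the 22 log2 fold changes above 0 in LNCaP and 19 of the 26 in 22Rv1. In both lines, 15 of its 20 genes were above 0. The median was 0.26 in LNCaP and 0.40 in 22Rv1, where the median over all tested genes was 0.00076 and 0.0025. The estimates ran from -0.43 for EBP to 0.86 for STARD4 in LNCaP and from -0.23 for PMVK to 0.83 for IDI1 in 22Rv1. STARD4 had only 3 to 11 counts in the LNCaP libraries. Without SEL120-34A replicate 3 of LNCaP, the LNCaP median was 0.17 with 13 of 19 tested genes above 0, and by limma on the deposited values it was 0.17 with 14 of 20. These 20 genes share libraries and a pathway and are not independent of each other. Scaling by library totals in place of TMM moved the median of all genes to -0.08 in LNCaP and -0.14 in 22Rv1 and left 14 and 18 sterol genes above 0, and the sterol median then exceeded that of all genes by 0.26 and 0.39.

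The early steps of the pathway are those from acetyl-CoA to farnesyl and geranylgeranyl pyrophosphate. ACAT2, which joins acetyl-CoA units, had a log2 fold change of -0.11 ± 0.19 (SE) in LNCaP, against 0.38 ± 0.18 in 22Rv1. MVK, mevalonate kinase, was at 19.7, 36.7 and 36.4 CPM in the LNCaP controls and 46.8, 37.9 and 50.7 CPM in the treated libraries, with a log2 fold change of 0.62 ± 0.33 (SE), with an adjusted p = 0.413. In 22Rv1, MVK was at 90.3, 39.3 and 70.4 CPM and 96.5, 98.7 and 68.5 CPM, and the log2 fold change was 0.39 ± 0.26 (SE), with an adjusted p = 0.445. The treated libraries were thus all higher for MVK in LNCaP, but not in 22Rv1. PMVK, the next kinase, was at 63.4, 65.5 and 51.7 CPM and 78, 56.9 and 78.1 CPM in LNCaP and at 86.4, 69.3 and 97.8 CPM and 68.9, 42.9 and 97 CPM in 22Rv1. Its log2 fold changes were 0.28 ± 0.25 (adjusted p = 0.699) and -0.23 ± 0.24 (adjusted p = 0.664), and the groups overlapped in both lines. MVD, the decarboxylase that acts after these kinases, was at 12.7, 31.4 and 36.4 CPM and 35.1, 43.4 and 42.2 CPM in LNCaP, with a log2 fold change of 0.67 ± 0.33 (SE), with an adjusted p = 0.374. In 22Rv1, MVD was at 116, 84.2 and 93 CPM and 132, 103 and 94.1 CPM, with a log2 fold change of 0.20 ± 0.23 (SE), with an adjusted p = 0.699. GGPS1, which extends farnesyl to geranylgeranyl pyrophosphate, was near the counting floor in several libraries and had wide errors, at 0.04 ± 0.42 and 0.40 ± 0.51.

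From squalene onwards, FDFT1 (squalene synthase) had a log2 fold change of 0.11 ± 0.16 in LNCaP, against 0.31 ± 0.16 in 22Rv1. SQLE, the squalene epoxidase and a rate-limiting step of the route, was at 56.3, 94.2 and 82.5 CPM with DMSO and 74.1, 89.4 and 92.9 CPM with treatment in LNCaP. In 22Rv1 it was at 122, 112 and 99 CPM and 138, 146 and 177 CPM, without overlap. Its log2 fold change was 0.23 ± 0.22 (SE), with an adjusted p = 0.721, in LNCaP and 0.50 ± 0.19 (SE), with an adjusted p = 0.123, in 22Rv1. TM7SF2, a sterol reductase of the lanosterol stage, was at 134, 139 and 101 CPM with DMSO and 148, 152 and 171 CPM with treatment in LNCaP, and at 37.3, 39.3 and 32.2 CPM and 44.1, 60.1 and 57 CPM in 22Rv1. All its treated libraries lay above the controls in both lines. The log2 fold changes of TM7SF2 were 0.40 ± 0.18 and 0.58 ± 0.27, with adjusted p = 0.299 and 0.233, and the mean of both was 0.49 ± 0.16 (SE), with an adjusted p = 0.066. MSMO1, which removes methyl groups from the sterol ring, was at 149, 152 and 159 CPM and 140.4, 189.7 and 199 CPM in LNCaP and at 132, 89.8 and 113 CPM and 96.5, 172 and 151 CPM in 22Rv1. Its groups overlapped in both lines, with log2 fold changes of 0.26 ± 0.18 (adjusted p = 0.574) and 0.30 ± 0.20 (adjusted p = 0.435). SC5D, the desaturase of a late step, was at 52.1, 47.1 and 40.5 CPM and 58.5, 65.1 and 44.4 CPM in LNCaP and at 37.3, 26.2 and 19.1 CPM and 49.6, 38.6 and 28.5 CPM in 22Rv1. Again the groups overlapped, and the log2 fold changes were 0.27 ± 0.28 (adjusted p = 0.745) and 0.58 ± 0.34 (adjusted p = 0.367).

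DHCR7, which reduces dehydrocholesterol to cholesterol, had log2 fold changes of 0.46 ± 0.18 in LNCaP, where all treated libraries lay above the controls, and 0.32 ± 0.18 in 22Rv1, where they overlapped. EBP, a sterol isomerase, had estimates of opposite sign, -0.43 ± 0.18 in LNCaP and 0.34 ± 0.17 in 22Rv1. ERG28, a scaffold of the sterol demethylation enzymes, was at 0.12 ± 0.20 and 0.45 ± 0.19. NSDHL and HSD17B7, the other enzymes of that demethylation, had few counts and SE of 0.44 to 0.46, and their estimates lay between -0.06 and 0.34. STARD4, a carrier that moves sterol between membranes, had the largest LNCaP estimate of the sterol arm, 0.86 ± 0.52, and an interval of -0.18 to 1.91.

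**Figure D3:**
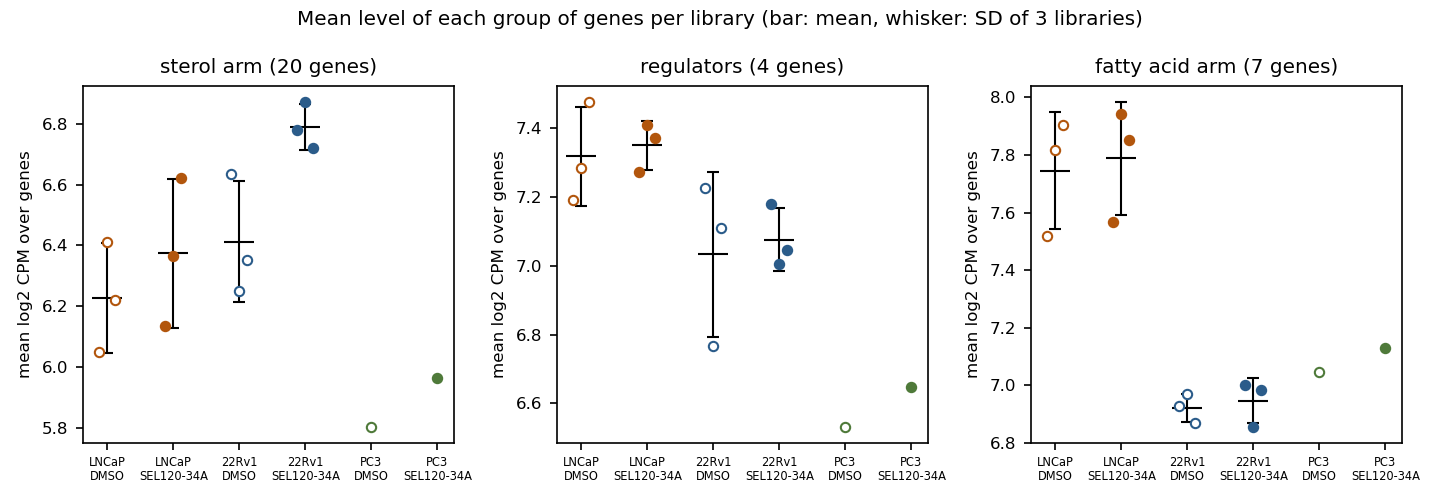
Mean log2 CPM over the 20 tested sterol genes, the 4 regulators and the 7 fatty acid genes in each library, with open points for DMSO, filled points for SEL120-34A, bars for the mean and whiskers for the SD of 3 libraries. The vertical axes do not start at 0. In 22Rv1 the 3 treated libraries, at 6.72 to 6.87, lie above the 3 controls, at 6.25 to 6.64, for the sterol genes, and the groups overlap in the other panels for LNCaP and 22Rv1.

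Averaged over its 20 genes, the sterol arm was at a mean log2 CPM of 6.64, 6.25 and 6.35 in the 22Rv1 controls and 6.78, 6.87 and 6.72 in the treated libraries. In LNCaP the controls were at 6.05, 6.41 and 6.22 and the treated libraries at 6.13, 6.37 and 6.62. The groups were apart in 22Rv1 and overlapped in LNCaP. The fatty acid arm, averaged over 7 genes, was at 6.93, 6.97 and 6.87 in the 22Rv1 controls and 7.0, 6.86 and 6.98 with treatment. It was at 7.52, 7.82 and 7.90 in the LNCaP controls and 7.57, 7.94 and 7.85 with treatment, so that the groups overlapped in both lines.

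The fatty acid arm had estimates of both signs. None of its 7 genes passed edgeR's test in either line. Of all genes, 1.99% passed higher and 0.776% lower in LNCaP, and 4.15% and 1.55% in 22Rv1. At such shares, 0 calls among 7 genes do not set the arm apart. At an unadjusted p under 0.05, ACACA and SCD were higher in LNCaP, against 7.86% of all genes (5.63% lower). In 22Rv1, FASN and FADS2 were higher and FADS1 lower, against 11.1% and 7.99% of all genes. DESeq2 and limma also called 0 of these 7 in LNCaP and in 22Rv1. The median log2 fold change was -0.03 in LNCaP, with 3 of 7 genes above 0, and 0.13 in 22Rv1, with 5 of 7. Both signs depended on the processing. In 22Rv1 the median was -0.18 after all libraries were thinned to the smallest total, -0.01 with library totals and -0.04 without SEL120-34A replicate 3. In LNCaP it was 0.03 after thinning and 0.06, 0.04 and 0.06 without DMSO replicate 2, DMSO replicate 3 and SEL120-34A replicate 1.

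FADS1 and FADS2 encode the desaturases that insert double bonds into polyunsaturated fatty acids, and their spans overlap on opposite strands of chromosome 11 (chr11:61799627-61829318 and chr11:61792980-61867354). In 22Rv1, FADS1 was at 153, 179.7 and 172 CPM with DMSO and 152, 73 and 79.9 CPM with SEL120-34A. FADS2 was at 66.7, 39.3 and 56.1 CPM and 74.4, 116 and 79.9 CPM in the same libraries. The treated libraries all lay below the controls for FADS1, where the nearest libraries stood at 153 and 152 CPM, and above them for FADS2. The log2 fold change of FADS1 was -0.67 ± 0.22 (SE), with an adjusted p = 0.0632, and that of FADS2 was 0.70 ± 0.24 (SE), with an adjusted p = 0.0805. FADS1 passed the test in 9 of 21 alternatives. Without SEL120-34A replicate 1 of 22Rv1 its log2 fold change was -1.11 with an adjusted p = 0.00774, and without DMSO replicate 1 or 3 or SEL120-34A replicate 3 of LNCaP it was -0.69 with adjusted p = 0.0393 to 0.0438. Without SEL120-34A replicate 2 or 3 of 22Rv1 it was -0.52 (adjusted p = 0.318) and -0.48 (adjusted p = 0.295). In LNCaP, FADS1 was at 139, 168 and 246 CPM with DMSO and 125, 149 and 173 CPM with treatment, with a log2 fold change of -0.26 ± 0.20 (SE), with an adjusted p = 0.62. FADS2 in LNCaP was at 745, 1060.3 and 972 CPM and 893, 865 and 891 CPM, with a log2 fold change of -0.03 ± 0.13 (SE), with an adjusted p = 0.96.

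SCD, the desaturase that makes oleate from stearate, passed the test over both lines together. It was at 224, 312 and 324 CPM with DMSO and 316, 518 and 327 CPM with treatment in LNCaP, and at 287, 307 and 266 CPM and 300.4, 365 and 362 CPM in 22Rv1. The groups overlapped in both lines, and the mean log2 fold change was 0.37 ± 0.12 (SE), with an adjusted p = 0.0464. Line by line it was 0.48 ± 0.16 (SE), with an adjusted p = 0.123, in LNCaP and 0.27 ± 0.17 (SE), with an adjusted p = 0.412, in 22Rv1. In LNCaP, the value rested on single libraries. It was 0.20 (adjusted p = 0.759) without SEL120-34A replicate 2 and 0.32 (adjusted p = 0.454) without DMSO replicate 1, and it passed at 0.62 (adjusted p = 0.0304) without SEL120-34A replicate 3. The call over both lines was lost on leaving out DMSO replicate 1 or SEL120-34A replicate 2 of LNCaP, or DMSO replicate 1 or 3 or SEL120-34A replicate 2 or 3 of 22Rv1, with log2 fold changes of 0.23 to 0.36 and adjusted p = 0.0823 to 0.298. In edgeR it was also lost with library totals (adjusted p = 0.205), no filter (0.221) and at least 10 counts in every library (0.0597). DESeq2 (adjusted p = 0.0602) and limma (0.222) did not give it either, so 11 of 20 alternatives ended the call. FASN, the fatty acid synthase, was at 604, 825 and 926 CPM and 632, 707 and 621 CPM in LNCaP and at 353, 316 and 330.4 CPM and 422, 446 and 374 CPM in 22Rv1. The estimate was -0.23 ± 0.13 (SE), with an adjusted p = 0.478, in LNCaP, where the groups overlapped, and 0.32 ± 0.15 (SE), with an adjusted p = 0.226, in 22Rv1, where they did not. ACACA, the acetyl-CoA carboxylase that commits carbon to fatty acids, was at 95.8, 75.9 and 81.1 CPM and 109, 111 and 118 CPM in LNCaP and at 41.2, 61.8 and 48.9 CPM and 57.9, 34.3 and 59.9 CPM in 22Rv1. Its treated libraries were all higher in LNCaP, where the log2 fold change was 0.44 ± 0.20 (SE), with an adjusted p = 0.321, while in 22Rv1 the change was 0.07 ± 0.26 (SE), with an adjusted p = 0.927. ACLY, which supplies cytosolic acetyl-CoA to both arms, had negative estimates of -0.13 ± 0.19 and -0.33 ± 0.20, with all treated libraries below the controls in 22Rv1. ELOVL6, an elongase of saturated chains, was at 0.43 ± 0.27 and 0.13 ± 0.28.

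The transcripts of the regulators gave estimates near 0. SREBF1 was at 224, 173 and 259 CPM with DMSO and 230.0, 228 and 188 CPM with SEL120-34A in LNCaP, and at 106, 56.2 and 68 CPM and 74.4, 68.7 and 71.3 CPM in 22Rv1. Its log2 fold changes were -0.03 ± 0.17 (95% interval -0.38 to 0.32, adjusted p = 0.969) and -0.06 ± 0.25 (interval -0.56 to 0.44, adjusted p = 0.929). SREBF2, which carries the single sterol regulatory element shown above, had log2 fold changes of 0.08 ± 0.16 (interval -0.25 to 0.41) and 0.10 ± 0.17 (interval -0.25 to 0.45). SCAP was at 88.7, 78.5 and 106 CPM and 105, 111 and 90.8 CPM in LNCaP and at 141, 152 and 166 CPM and 168, 146 and 111 CPM in 22Rv1, with log2 fold changes of 0.16 ± 0.20 (adjusted p = 0.803) and -0.11 ± 0.18 (adjusted p = 0.812). INSIG1, itself a known target of the pathway, had log2 fold changes of 0.02 ± 0.20 and 0.25 ± 0.20. None of the 4 had groups without overlap in either line. Over all genes, treated libraries all lay above the controls for 8.76% in LNCaP and 12.4% in 22Rv1, and below them for 10.7% and 10.5%. At such shares, 0 of 4 does not set the regulators apart. Transcript levels give no measure of the cleavage of these factors.

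Whether the lines responded differently was tested directly, as the LNCaP effect minus the 22Rv1 effect. By edgeR, 0 of the 31 genes had a higher effect in LNCaP, against 0.268% of all genes, and 0 had a lower one, against 0.466%. DESeq2 and limma also called 0. At an unadjusted p under 0.05, 0 genes were higher, against 5.36% of all genes, and 4 were lower, against 6.08%. These 4 were EBP (-0.77, adjusted p = 0.181), FASN (-0.55, adjusted p = 0.261), FADS2 (-0.73, adjusted p = 0.284) and FDPS (-0.52, adjusted p = 0.317). Of the 20 sterol genes, 15 had the more positive estimate in 22Rv1, with a median difference of -0.23 on the log2 scale, against -0.02 over all genes. The calls of FDPS, IDI1 and HMGCS1 in 22Rv1 are therefore not shown to be particular to that line.

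With both lines averaged, 3 of the 31 genes were called higher (LSS, IDI1 and SCD), against 3.88% of all genes, and 0 lower, against 2.13%. At an unadjusted p under 0.05, 14 were higher, against 11.4% of all genes, and 1 was lower, against 8.47%. That one was FADS1, at -0.47 ± 0.15 (SE), with an adjusted p = 0.054, and DESeq2 and limma called 0 lower. The log2 fold change was above 0 for 27 of the 31 genes, against 49.5% of all genes, and for 19 of the 20 sterol genes, with a sterol median of 0.32. Without SEL120-34A replicate 3 of LNCaP, 14 of 19 sterol genes were above 0, and by limma 16 of 20. HMGCS1, DHCR7 and TM7SF2 stood next to the threshold, with adjusted p = 0.0648, 0.0617 and 0.066. Leaving out single libraries moved HMGCS1 between 0.36 and 0.64, DHCR7 between 0.28 and 0.52 and FADS1 between -0.69 and -0.33. HMGCS1 passed without LNCaP DMSO replicate 2, at a log2 fold change of 0.64 and an adjusted p = 0.00971, and DHCR7 passed without 22Rv1 DMSO replicate 1 or SEL120-34A replicate 3, at 0.52 and 0.46 with adjusted p = 0.00708 and 0.0377. FADS1 passed on leaving out DMSO replicate 1 or 2 or SEL120-34A replicate 3 of LNCaP, or replicate 1 of either 22Rv1 group, with log2 fold changes of -0.69 to -0.50 and adjusted p = 0.00582 to 0.0494.

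The levels of the pathway in the untreated lines differed for several genes, in a share close to that of all genes. LNCaP had 7 of the 31 genes higher than 22Rv1, against 24% of all genes tested, and 6 lower, against 25%. Without overlap between the DMSO libraries, 8 were higher, against 27.5% of all genes, and 7 lower, against 28.9%. Those higher in LNCaP were 3 genes of the fatty acid arm, 3 later sterol enzymes and SREBF1, and those lower in LNCaP were 4 mevalonate enzymes, SQLE and SCAP.

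**Figure D4:**
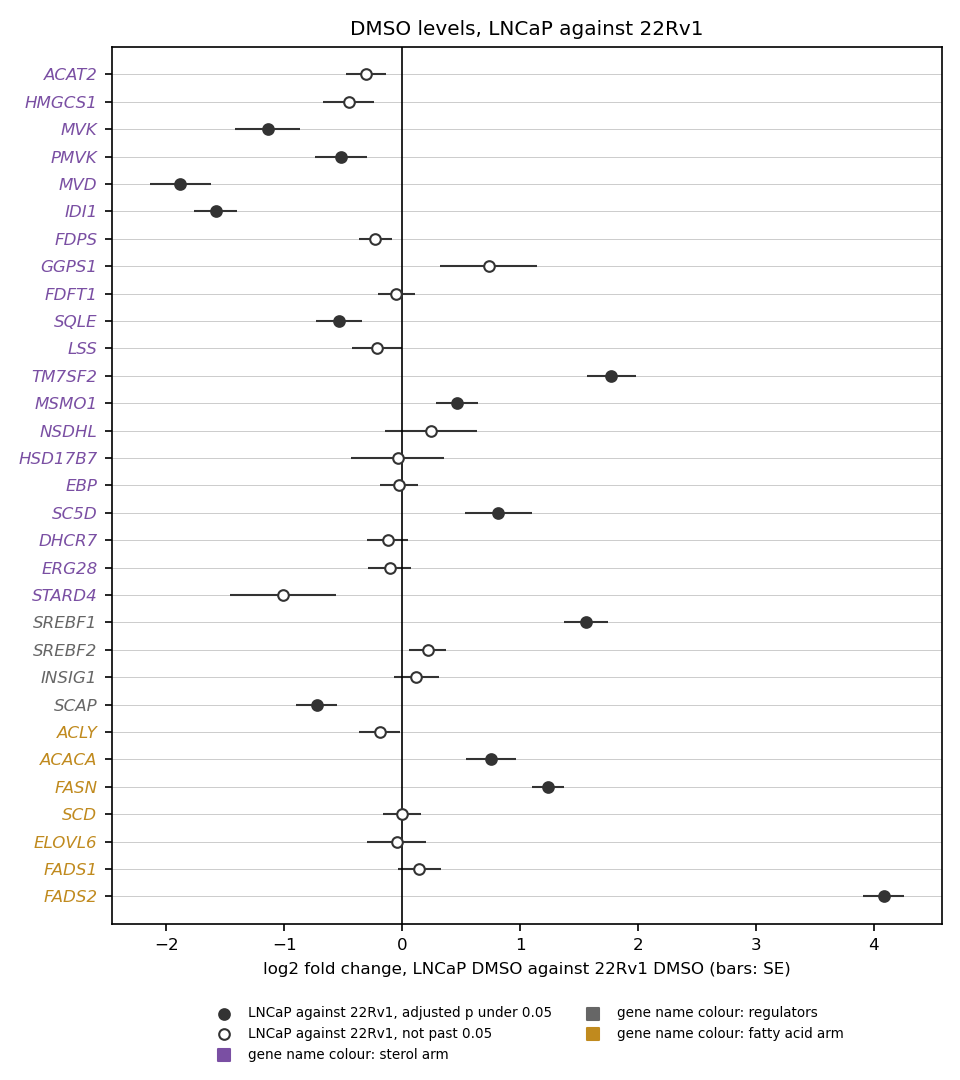
Log2 fold change of LNCaP DMSO against 22Rv1 DMSO for the 31 tested genes, with bars for the SE of edgeR's fit from 3 libraries per line and filled points for an adjusted p under 0.05. FADS2, at 4.09, lies far to the right of the other genes, and MVD and IDI1, at -1.88 and -1.58, lie farthest to the left.

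FADS2 showed the widest gap between the untreated lines, at 926 ± 163 CPM (SD, n = 3) in LNCaP and 54 ± 13.8 CPM in 22Rv1, a log2 fold change of 4.09 ± 0.17 (SE), with an adjusted p = 2.07e-22. Its neighbour FADS1 was at 184 ± 55.3 CPM and 168 ± 13.6 CPM, with a log2 fold change of 0.15 ± 0.18 (SE), with an adjusted p = 0.535. FASN was at 785 ± 164 CPM in LNCaP and 333 ± 18.7 CPM in 22Rv1, a log2 fold change of 1.24 ± 0.14 (SE), with an adjusted p = 6.55e-10. ACACA was at 84.3 ± 10.3 CPM and 50.6 ± 10.4 CPM, a log2 fold change of 0.75 ± 0.21 (SE), with an adjusted p = 0.0033. SREBF1 followed the same direction, at 218 ± 43.2 CPM and 76.7 ± 26.1 CPM, with a log2 fold change of 1.56 ± 0.18 (SE), with an adjusted p = 3.07e-09. The remaining fatty acid genes, ACLY, SCD and ELOVL6, differed by -0.19, 0.00 and -0.05 on the log2 scale and did not pass the test. ACACA did not pass it either after all libraries were thinned to the smallest total, with an adjusted p = 0.43.

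The sterol arm differed in both directions between the untreated lines. MVD was at 26.8 ± 12.5 CPM (SD, n = 3) in LNCaP and 97.7 ± 16.3 CPM in 22Rv1, and the log2 fold change was -1.88 ± 0.26 (SE), with an adjusted p = 1.12e-07. IDI1 was at 85.3 ± 26.2 CPM and 247 ± 25.1 CPM, and MVK at 30.9 ± 9.69 CPM and 66.7 ± 25.7 CPM. Their log2 fold changes were -1.58 ± 0.18 (adjusted p = 2.36e-09) and -1.14 ± 0.28 (adjusted p = 0.000792). SQLE and PMVK were lower in LNCaP by smaller margins, at -0.54 ± 0.19 (adjusted p = 0.0192) and -0.52 ± 0.22 (adjusted p = 0.0471). SCAP was lower in LNCaP, at 91.2 ± 14 CPM against 153 ± 12.3 CPM, with a log2 fold change of -0.73 ± 0.17 (SE), with an adjusted p = 0.000612. In the other direction, TM7SF2 was at 124 ± 20.7 CPM in LNCaP and 36.3 ± 3.66 CPM in 22Rv1, a log2 fold change of 1.78 ± 0.21 (SE), with an adjusted p = 2.73e-09. SC5D and MSMO1 were higher in LNCaP by 0.82 ± 0.28 (adjusted p = 0.0156) and 0.47 ± 0.18 (adjusted p = 0.0269). The calls of these smaller differences depended on single libraries and on the processing. SQLE lost its call without LNCaP DMSO replicate 1 or 22Rv1 DMSO replicate 1 (-0.34 and -0.49), and SC5D without LNCaP DMSO replicate 1 or 22Rv1 DMSO replicate 3 (0.70 and 0.54). MSMO1 lost it without LNCaP DMSO replicate 1 or 3 or 22Rv1 DMSO replicate 2 or 3 (0.34 to 0.48), and PMVK without any of the 3 LNCaP controls, 22Rv1 DMSO replicate 1 or 3 or 22Rv1 SEL120-34A replicate 1 (-0.59 to -0.39). HMGCS1 and STARD4 were not called, at -0.45 (adjusted p = 0.0828) and -1.01 (adjusted p = 0.0595). HMGCS1 was at -0.76 and called without LNCaP DMSO replicate 2, and at -0.24 (adjusted p = 0.44) without LNCaP DMSO replicate 1. STARD4 was at -1.29 and -1.37 and called without LNCaP DMSO replicate 2 or 22Rv1 DMSO replicate 3, and at -0.79 (adjusted p = 0.204) without 22Rv1 DMSO replicate 2. Other processing also ended calls or moved values. After thinning, SC5D was at 0.41 (adjusted p = 0.494) and SQLE at -0.35 (adjusted p = 0.279), while PMVK kept its call at -1.15 (adjusted p = 0.00398), and with library totals SC5D was at 0.60 (adjusted p = 0.0727) and MSMO1 at 0.25 (adjusted p = 0.237). DESeq2 called none of SQLE, PMVK, SC5D and MSMO1, limma called SQLE alone of them, and with no filter on low counts SC5D alone was called.

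PC3 had 1 library per arm, so that its values carry no replicate error and no test was made. Intervals are exact 95% intervals of the ratio of the 2 counts and cover counting error only. Of the 32 genes, 27 had at least 10 counts in both libraries, and their median log2 ratio of SEL120-34A over DMSO, with 0.5 added to each count, was 0.18. Over the 17 sterol genes the median was 0.19, with 12 above 0, and over the 6 fatty acid genes it was 0.14, with 5 above 0. All 7089 genes with as many counts had a median of 0.06, and 57.3% of them were above 0.

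**Figure D5:**
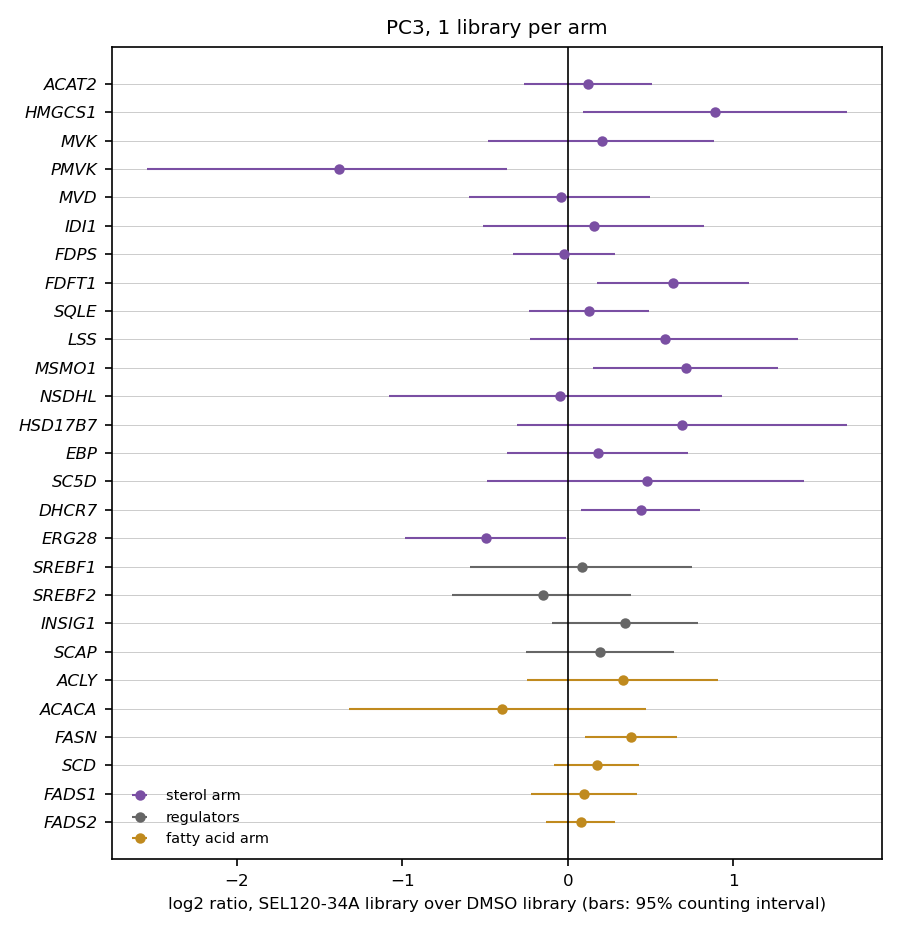
Log2 ratio of the PC3 library with SEL120-34A over the PC3 library with DMSO for the 27 genes with at least 10 counts in both, with bars for the exact 95% counting interval. The intervals of HMGCS1, FDFT1, MSMO1, DHCR7 and FASN lie to the right of 0 and those of PMVK and ERG28 to the left. The share of all genes with such intervals was not computed.

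In PC3, HMGCS1 had 29.4 CPM with DMSO and 54.4 CPM with SEL120-34A, a log2 ratio of 0.89 (interval 0.09 to 1.69). FDFT1 was at 91.5 and 142 CPM, with 0.64 (interval 0.18 to 1.09), and MSMO1 at 61 and 99.9 CPM, with 0.71 (interval 0.16 to 1.27). DHCR7 and FASN were also above 0 by counting error, at 0.44 (interval 0.08 to 0.80) and 0.38 (interval 0.10 to 0.66). PMVK was lower in the treated library, with 10 counts against 42, at -1.38 (interval -2.54 to -0.36), and so was ERG28, at -0.49 (interval -0.99 to -0.01). The share of all PC3 genes whose interval left out 0 was not computed, and replicate libraries of the other lines varied beyond counting error. The genes named here are thus not shown to be unusual in PC3. Of the genes that passed the test in 22Rv1 or LNCaP, HMGCS1 alone had an interval that left out 0. LSS was at 0.58 (interval -0.23 to 1.39), IDI1 at 0.16 (interval -0.52 to 0.82) and FDPS at -0.02 (interval -0.33 to 0.28). FADS1 and FADS2 were at 0.10 (interval -0.22 to 0.42) and 0.08 (interval -0.13 to 0.29), and the level of FADS2 in the PC3 control was 522 CPM.

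Around these 32 genes, 5 lists of neighbouring genes were followed. For all of their counts, the shares of all 7086 tested genes called were 1.99% higher and 0.776% lower in LNCaP and 4.15% higher and 1.55% lower in 22Rv1. Among 17 genes of sterol handling and uptake, 1 rose in LNCaP and 3 rose in 22Rv1, with none lower in either line, and the median log2 fold change was 0.10 and 0.16. The gene in LNCaP was NPC1, a lysosomal cholesterol exporter, at 0.99 ± 0.27 (SE, adjusted p = 0.0351). Those in 22Rv1 were NPC2, its soluble partner, at 1.10 ± 0.27 (adjusted p = 0.00977), the cytochrome CYB5B at 0.72 ± 0.17 (adjusted p = 0.00515) and the retinol dehydrogenase RDH11 at 0.74 ± 0.19 (adjusted p = 0.013). Of 5 tested genes of the sterol-sensing receptor LXR and of efflux, 1 rose in LNCaP and none passed in 22Rv1. It was ABCG1, a cholesterol exporter, at 1.88 ± 0.46 on the log2 scale (adjusted p = 0.0146). Its mean in LNCaP was 10.4 CPM with DMSO, against floors of 4.19 to 7.85 CPM, and 35.9 CPM with treatment. In 22Rv1 the mean of ABCG1 was 2.10 CPM with DMSO and 1.84 CPM with treatment. Both lay below the floors of the 22Rv1 libraries, 3.58 to 12.9 CPM, so its response there could not be judged. The 8 tested genes of SREBP processing and sterol-regulated degradation had 0 called in either line by edgeR, with 1 at an unadjusted p under 0.05, in 22Rv1, and medians of 0.08 and -0.05. Of 9 tested genes of other isoprenoid branches, ICMT, which methylates prenylated proteins, fell in 22Rv1, with a log2 fold change of -0.74 ± 0.21 (adjusted p = 0.0263).

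Among 19 tested genes of fatty acid supply, elongation and activation outside the 7, 3 rose in LNCaP, against 1.99% of all genes, while 3 rose and 1 fell in 22Rv1, against 4.15% and 1.55%, with medians of 0.02 in LNCaP and 0.09 in 22Rv1. In LNCaP these were CYB5A, an electron donor for desaturases, at 0.84 ± 0.12 (adjusted p = 1.13e-05), the acyl-CoA synthetase ACSL1 at 0.80 ± 0.19 (adjusted p = 0.0121) and the elongase ELOVL5 at 0.64 ± 0.17 (adjusted p = 0.0229). In 22Rv1, the acyl-CoA binding protein DBI rose by 0.83 ± 0.14 (adjusted p = 9.66e-05), and its effect was lower in LNCaP than in 22Rv1 by the test of the difference (-1.04 ± 0.19, adjusted p = 0.00177). ACSS2, which makes acetyl-CoA from acetate, rose by 1.19 ± 0.34 (adjusted p = 0.0273), and ACSL3, another acyl-CoA synthetase, fell, at -0.80 ± 0.22 (adjusted p = 0.0246).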

How the data were processed

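RNA of LNCaP, 22Rv1 and PC3 cells was sequenced as 14 libraries with BRB-seq, a method that tags each sample, pools them and reads the 3′ ends of transcripts. Per the labels and the methods of the study, the authors aligned and counted the reads with STARsolo on GRCh38.p13 (GENCODE release 43), and the deposited counts are unscaled and cover 62703 genes. Whether molecular identifiers were collapsed was not stated. The authors also deposited log2 CPM values for 9638 genes, which edgeR gave again from the counts with its low-count filter over 6 groups, TMM and a prior count of 2 (largest difference 4.97e-14). Counts were used for all main results and the deposited log2 values for 1 alternative.

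Counts of the 12 LNCaP and 22Rv1 libraries were fitted in edgeR 4.0.16 (R 4.3.3) with 4 groups, TMM and the low-count filter (7086 genes), with 8 residual degrees of freedom and a common biological coefficient of variation of 11.1%. The quasi-likelihood F-test gave the effect of SEL120-34A in each line, its difference and mean over lines, and LNCaP against 22Rv1 with DMSO. p-values were adjusted by the method of Benjamini and Hochberg across the 7086 genes, with a threshold of 0.05. SE were taken from the F statistic. PC3, with 1 library per arm, was described by count ratios. Levels are CPM over TMM-scaled totals of all 14 libraries, and libraries held 246063 to 909176 counts. Libraries of a group varied beyond counting error (chi-square per degree of freedom 1.33 to 2.65), and none was counted as a duplicate. The fit was tested on simulated data.

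The 32 genes and the other lists were chosen with earlier results of these data known. All 32 were accounted for, with values in every library for those past the threshold in any comparison. Of each other list the counts are given, and at most 3 genes per line past the threshold. FADS1, EBP and others that did not pass were named after their values were seen. Gene positions came from GENCODE release 44 and promoters from RefSeq. Alternatives were other scaling (library totals, DESeq2 size factors), filters, thinning, each line alone, a replicate block, DESeq2 1.42.0, limma 3.58.1 and leaving out each library.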

Additional observations from a re-analysis of the deposited data

How the results depend on the processing

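Shallow libraries, 3 per arm, left SE of 0.13 to 0.52 on the log2 scale for these genes. Changes well above 1 SE could still fail edgeR's test over all genes. Examples are EBP in LNCaP, at -0.43 ± 0.18 (SE, adjusted p = 0.266), and FADS1 in 22Rv1, at -0.67 ± 0.22 (SE, adjusted p = 0.0632). In LNCaP, where 1 gene was called, 0 were called with library totals, with no filter, by DESeq2 and by limma-trend on the deposited values, and 0 to 1 when single libraries were left out. In 22Rv1, where 4 genes were called, 2 were called with library totals, 2 with no filter, 1 after thinning and 0 by limma-trend, and 1 to 5 without single libraries. FADS1 was called lower, and is 1 of these calls, in 22Rv1 with library totals and with no filter and without 4 of the single libraries. For the mean of both lines, with 3 calls, limma-trend gave 1, and single libraries left out gave 2 to 5, FADS1 lower among them without 5 of the libraries. DESeq2 gave 2, without SCD. With library totals and with no filter 3 were called, but FADS1, lower, then stood in place of SCD. The fatty acid median in 22Rv1 was -0.18 after thinning and -0.041 to 0.27 without single libraries. The cause of these shifts was not tested. For genes past the threshold in the main fit or in any alternative, 622 values under an alternative were compared. Of these, 502 kept their side of the threshold, 87 lost and 33 gained a call. None changed sign, but these genes were picked by a call, and over all genes signs did change. With library totals, 14 of the 20 sterol genes were above 0 in LNCaP in place of 16, and 1 of the 4 regulators in place of 3. After thinning, 5 of the 7 fatty acid genes were above 0 in LNCaP in place of 3, and 3 in 22Rv1 in place of 5.

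The labels number replicates 1 to 3 in every group, but nothing says that a number marks a shared culture or day. Deviations from the group means correlated between same-numbered DMSO and SEL120-34A libraries at -0.05 to 0.12, so the numbers were not taken to pair the libraries. With a replicate block, 1 gene was called in LNCaP, 5 in 22Rv1, 6 for the mean of both lines and 0 for the difference, and 1 of the 5 and 1 of the 6 was FADS1, lower. Each line alone could not be fitted for comparisons of both lines.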

Other observations

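The log2 ratio of FADS2 counts to FADS1 counts was -1.20, -2.19 and -1.62 in the 22Rv1 controls and -1.03, 0.67 and 0 in the treated libraries. These 3 treated libraries lay above the 3 controls, on 17 to 55 counts of FADS1 and 27 to 28 counts of FADS2. In LNCaP it was 2.42, 2.66 and 1.98 with DMSO and 2.84, 2.54 and 2.36 with SEL120-34A, which overlapped. The PC3 libraries were at 1.20 and 1.18. This ratio was chosen after the values were seen, and it was not tested.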
